A study of Drosophila melanogaster with 6 samples.

Results

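The genes described here encode the machinery that separates chromosomes and divides the cell: the chromosomal passenger complex, the spindle checkpoint, the anaphase-promoting complex (APC/C), condensin, cohesin with separase, mitotic kinesins, spindle pole and microtubule proteins, the kinetochore and centromere, cytokinesis factors and regulators of mitotic entry. The set of 53 genes was drawn up by function, with earlier results of these data known. Probe sets were assigned where the platform's gene symbol was exactly that of a member, and the probe set with the highest mean over all arrays stood for its gene. This gave 43 genes of 10844 named by the arrays, and the other 10 are not analysed here. By sub-complex, 3 of 3 passenger, 3 of 4 checkpoint, 9 of 10 APC/C, 5 of 5 condensin, 5 of 7 cohesin and separase, 3 of 4 kinesin, 4 of 6 cytokinesis, 3 of 6 spindle pole, 6 of 6 kinetochore and centromere and 2 of 2 mitotic entry genes were measured.

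In mitosis, condensin compacts the chromosomes and cohesin holds sister chromatids together until separase cuts it. The kinetochore, built on centromeric nucleosomes, attaches each chromatid to spindle microtubules, and the passenger complex corrects faulty attachments with its Aurora B kinase. The checkpoint holds back the APC/C, the ubiquitin ligase that triggers anaphase, until attachment is complete, and the midzone and contractile ring then split the cell. In the Drosophila embryo at this age, progenitors of mesoderm, epidermis and nervous system divide in their late embryonic cycles.

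Embryos carrying the TinD-GFP reporter, which the labels say targets GFP to cardiac mesoderm, were dissociated between late stage 11 and early stage 12 and sorted by flow cytometry. Both groups had this same genotype and age, and RNA of GFP-positive and of GFP-negative cells was read on 3 Affymetrix arrays each. The GFP-negative cells are the rest of the embryo, a mixture of many cell types. The labels do not say whether replicates came from separate embryo collections, so p-values measure only the spread between these arrays, which may be technical. In such pooled RNA, fewer dividing cells and less RNA per dividing cell cannot be told apart.

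Array medians of the log2 signal lay between 3.71 and 3.73, and correlations between arrays averaged 0.932 within and 0.930 between groups. The background level was 2.44, the highest mean among 23 control probe sets of other organisms, and on single arrays the highest such control lay at 2.58 to 3.55. Of 12 measured cardiac and dorsal mesoderm markers 0 passed the test, 6 were higher and 6 were lower. Without overlap, 4 of the 12 were lower (pnr, Doc1, Doc2 and Doc3) and 2 higher (tup and eve). Of all probe sets, 10.2% were lower and 9.47% higher without overlap. The summed linear signal of the 12 was 495 to 535 in GFP-positive and 500 to 574 in GFP-negative arrays. The means of lbe and lbl lay below background in both groups. The listed marker tin had no probe set of exactly that symbol. Of 4 pan-mesoderm markers all were higher and 2 rose, Him and if, and their sum was 426 to 441 against 286 to 312. Markers of neuroblasts, which also divide at this age, summed to 1354 to 1422 against 1307 to 1378, and 0 of 7 passed. Among 5 germ cell markers tud rose by 0.50 ± 0.10 (log2, SE, limma adjusted p = 0.040), and the list summed to 158 to 175 against 126 to 133. Of these 5, 4 were higher and aub was lower, and the mean of vas lay below background in both groups. In the other lists 0 of 4 neuron, 0 of 4 epidermis, 0 of 6 hemocyte, 0 of 3 midgut and 0 of 3 trachea and salivary markers passed. The part that these cell types had in the results below was not tested.

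The mitotic genes had mostly small differences, and more of them were lower than higher in GFP-positive cells. Their log2 differences, GFP-positive minus GFP-negative, had a median of -0.15, against -0.02 over all 10844 genes and -0.04 over the 5179 genes with a mean signal above 4. The difference was below 0 in 34 of 43 members (79.1%) and in 56.2% of genes with a mean above 4. Measured from each gene's own mean, the median member sat at -0.03, -0.08 and -0.05 on the GFP-positive arrays and at 0.09, 0.06 and 0.07 on the GFP-negative arrays. By this measure every GFP-positive array lay below every GFP-negative array. The order alone is not particular to the members. Over all genes with a mean above 4 it was the same, at -0.003, -0.002 and -0.010 against 0.021, 0.018 and 0.023.

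By limma with a prior variance that follows the signal level (2-sided, Benjamini-Hochberg adjustment over 13966 probe sets, threshold 0.05), 2 members fell, borr and aurB, 0 rose and 41 did not pass. The genes that fell are 4.65% of the members, where 0.895% of all probe sets and 1.93% of genes with a mean above 4 fell. Over all probe sets 1.54% rose and 2.43% passed in either direction, and 3.11% of genes with a mean above 4 rose. Both called genes belong to the passenger complex. With 1 prior variance shared by every probe set, limma called 0 members and 0 probe sets. At an unadjusted p under 0.05 that fit gave 4 members as lower, 9.30%, where 4.79% of probe sets were, and 1 member as higher, where 5.82% of probe sets were. Among genes with a mean above 4 it gave 3 of 40 members as lower (7.5%), near the 6.85% of all such genes.

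The groups did not overlap in 19 members. In 17 of them, 39.5% of the 43, all GFP-positive arrays were lower, where 10.2% of all probe sets showed this. Among genes with a mean above 4 the figures were 15 of 40 members (37.5%) against 17.6%. In the remaining 2, tacc and twe, the GFP-positive arrays were higher (4.65% of members, 9.47% of all probe sets), and of these only tacc had a mean above 4 (1 of 40 such members, 13.8% of such genes). Members with a mean above 4 had a median level of 6.77, against 5.85 for all such genes. These shares are thus not matched by level. The gap between the groups was under 0.02 on the log2 scale in 7 of the 19, so in these the separation is narrow. The plot of values by array shows all 43 genes in their sub-complexes.

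**Figure D1:**
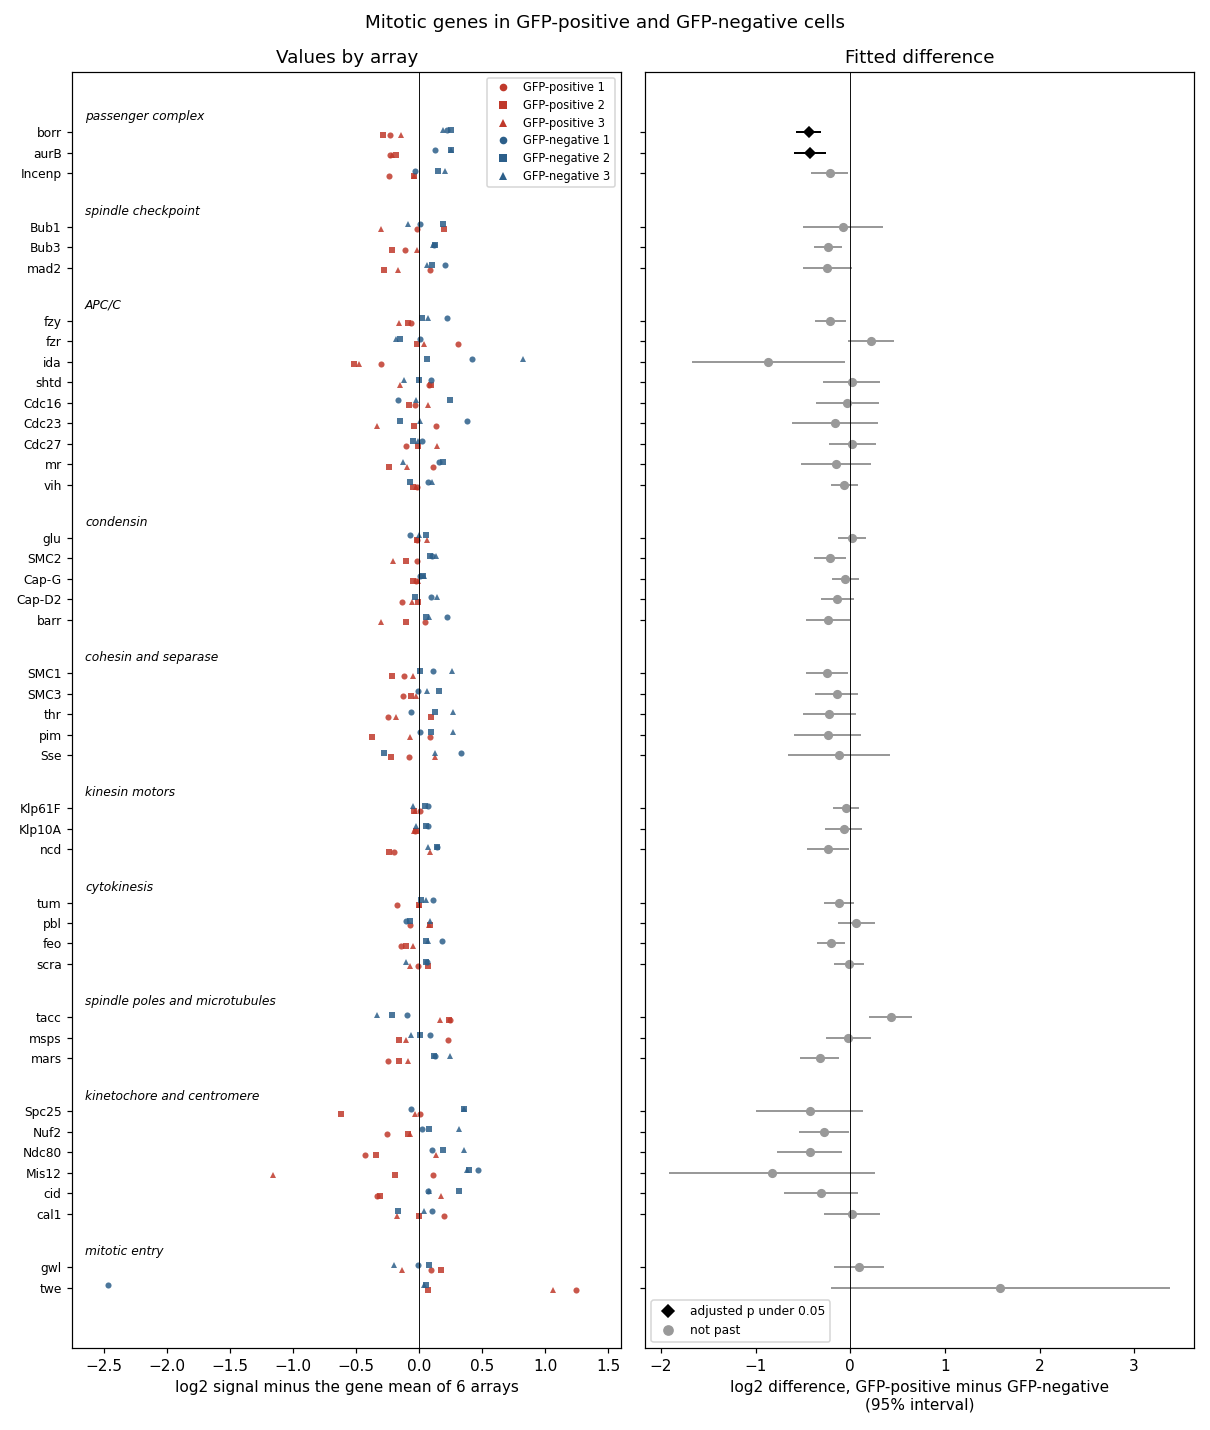
Left, the log2 signal of each of 43 mitotic genes on each array, minus the gene's mean over 6 arrays (red GFP-positive, blue GFP-negative, the symbol gives the replicate). Right, the fitted log2 difference, GFP-positive minus GFP-negative, with its 95% interval, black where the adjusted p is under 0.05: borr and aurB alone are black, and 34 of 43 points lie left of 0.

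All 3 genes of the passenger complex had lower means in GFP-positive cells, and their median difference was -0.42. That median was -0.22 when the probe sets of a gene were averaged, which bears on borr alone here, and -0.29 after the span adjustment described further on. borr encodes borealin, the subunit that helps to place the complex on the centromere. Its log2 signal was 9.18, 9.12 and 9.26 on the GFP-positive arrays and 9.62, 9.66 and 9.59 on the GFP-negative arrays. The groups were separated by 0.34, more than the spread within either, and borr fell by 0.44 ± 0.05 (SE, n = 3 per group, limma adjusted p = 0.0050), which is 1.36-fold lower. aurB encodes the complex's kinase, Aurora B. It stood at 6.91, 6.95 and 6.92 in GFP-positive and at 7.27, 7.40 and 7.39 in GFP-negative cells. Here too no array of one group reached the other, and aurB fell by 0.42 ± 0.07 (limma adjusted p = 0.0185), 1.34-fold lower.

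Incenp, the scaffold that binds and activates Aurora B, differed by -0.22 ± 0.08 (SE, limma adjusted p = 0.251) and did not pass. Its GFP-positive values of 8.56 to 8.76 lay just under the GFP-negative values of 8.77 to 9.01, with a gap of 0.01. Det, the survivin-like subunit, is not among the 53 genes and differed by -0.23 ± 0.09 (adjusted p = 0.283). The call of borr held without any 1 array, with adjusted p-values of 0.016 to 0.032. The call of aurB held only without GFP-negative replicate 1 (adjusted p = 0.033), and without any other array its adjusted p was 0.068 to 0.090 while the difference stayed between -0.40 and -0.44. Over all alternatives its adjusted p ran from 0.0036 to 0.321.

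borr was read by 2 probe sets, which disagreed. The brighter, used above, fell, while the dimmer gave 4.87, 3.94 and 4.12 in GFP-positive and 4.27 on each GFP-negative array, a difference of 0.04 ± 0.27 (SE, adjusted p = 0.971). GFP-positive replicate 1 was the highest and replicate 2 the lowest of its 6 values, so the spread covers the fall seen with the brighter probe set, whose difference lies within the dimmer one's 95% interval of -0.58 to 0.66. With the mean of both probe sets borr differed by -0.20 (limma adjusted p = 0.514) and did not pass. Over all alternatives its adjusted p ran from 4.3e-04 to 0.514. Cap-G, a condensin subunit, was the other member with several probe sets. Its brighter one differed by -0.05 ± 0.06 (adjusted p = 0.764) and its dimmer one by -0.48 ± 0.12 (adjusted p = 0.082). Both pointed down for Cap-G, but by unequal amounts.

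**Figure D2:**
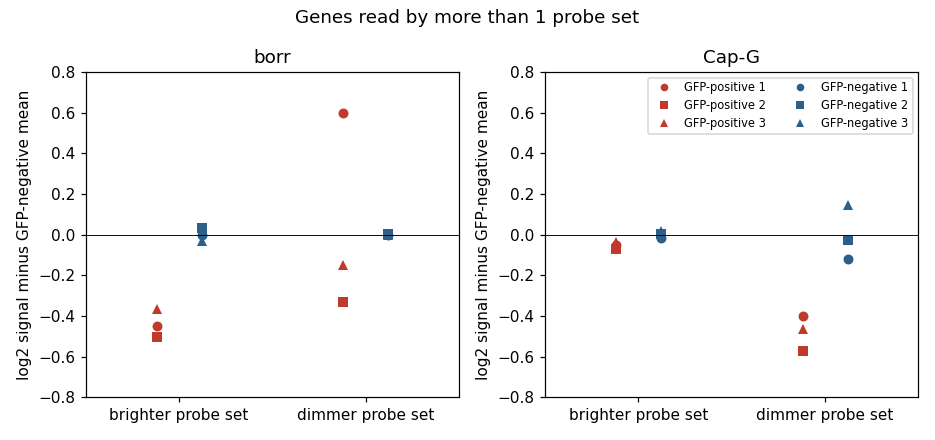
Log2 signal of borr and Cap-G on each array minus the GFP-negative mean, for the brighter and the dimmer probe set (red GFP-positive, blue GFP-negative, the symbol gives the replicate). For borr the brighter probe set separates the groups by 0.34 while the dimmer one overlaps, and for Cap-G the dimmer one separates them by 0.28 and the brighter one by 0.02.

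Of 6 kinetochore and centromere genes 5 were lower and none passed, and their median difference was -0.37. It was -0.17 both with a pseudocount of 32 and after the span adjustment, which leaves out the dim Mis12. Ndc80, the microtubule-binding subunit of the NDC80 complex, stood at 6.33, 6.41 and 6.89 in GFP-positive and at 6.86, 6.95 and 7.11 in GFP-negative cells. GFP-positive replicate 3 fell inside the GFP-negative range, and the difference was -0.43 ± 0.15 (SE, n = 3 per group, limma adjusted p = 0.202). Without that array it was -0.60 (limma adjusted p = 0.0493), which passed, and over all alternatives its adjusted p ran from 0.0493 to 0.509. Its partners Nuf2 and Spc25 differed by -0.28 ± 0.11 and -0.43 ± 0.24 (adjusted p = 0.287 and 0.485). The means of all 3 measured subunits of this complex were lower in GFP-positive cells, and none of the 3 passed.

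cid, the centromeric histone that marks where kinetochores form, differed by -0.31 ± 0.17 (limma adjusted p = 0.450), and again GFP-positive replicate 3 (5.53) lay among the GFP-negative arrays (5.43 to 5.67). cal1, the factor that loads cid onto centromeres, differed by 0.01 ± 0.13 (95% interval -0.27 to 0.30). Mis12, of the complex that links the centromere to NDC80, was dim. It read 3.05, 2.74 and 1.78 in GFP-positive against 3.40, 3.33 and 3.31 in GFP-negative cells, where single controls reach 3.55, and its difference of -0.83 ± 0.47 (adjusted p = 0.492) was -0.45 without GFP-positive replicate 3.

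The 3 checkpoint genes had lower means in GFP-positive cells, with a median of -0.24 (-0.10 after the span adjustment), and none passed. Bub3, an adaptor that brings checkpoint kinases to the kinetochore, stood at 8.48, 8.38 and 8.58 against 8.72, 8.72 and 8.71. The groups did not overlap, the GFP-negative arrays were close together, and the difference was -0.24 ± 0.06 (SE, limma adjusted p = 0.0998). mad2, which inhibits the APC/C activator Fizzy, differed by -0.24 ± 0.11 (adjusted p = 0.339), with GFP-positive replicate 1 (6.63) inside the GFP-negative range of 6.61 to 6.75. The checkpoint kinase gene Bub1 differed by -0.08 ± 0.18, and its 95% interval of -0.48 to 0.33 leaves its direction unsettled.

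APC/C genes were spread around 0, with a median of -0.06 over 9 genes (-0.10 to -0.03 over all alternatives), 6 lower and 3 higher, and none passed. Its pair of activators had differences of opposite sign. fzy, the Cdc20 orthologue that starts anaphase, stood at 8.13, 8.11 and 8.03 in GFP-positive and at 8.42, 8.22 and 8.27 in GFP-negative cells, without overlap and with a difference of -0.21 ± 0.07 (SE, limma adjusted p = 0.176). fzr, the Cdh1 orthologue that acts as cells leave mitosis and in G1, differed by 0.22 ± 0.10 (adjusted p = 0.358), with GFP-positive values of 7.00 to 7.32 against 6.84 to 7.02. The opposite signs of these activators were not tested against each other.

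The ubiquitin-conjugating enzyme gene vih, which serves the APC/C, read 8.88, 8.85 and 8.87 against 8.97, 8.83 and 9.00. GFP-negative replicate 2 was the lowest of these 6 values, and the difference was -0.06 ± 0.06 (95% interval -0.20 to 0.07). Among the core subunits, ida differed by -0.87 ± 0.35 (adjusted p = 0.290) without overlap. Its GFP-positive values of 2.91 to 3.12 lay below the highest control of a single array, 3.55, so its size is uncertain. The scaffold gene shtd, the subunit genes Cdc16, Cdc23 and Cdc27 and the cullin-like gene mr had differences between -0.16 (Cdc23) and 0.02 (Cdc27), each with overlapping groups.

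Condensin genes had a median of -0.14 over 5 genes (-0.22 when probe sets were averaged). SMC2, an ATPase of the ring, stood at 7.57, 7.48 and 7.38 in GFP-positive and at 7.69, 7.67 and 7.72 in GFP-negative cells. All GFP-positive arrays were lower, and the difference was -0.22 ± 0.07 (SE, limma adjusted p = 0.168). glu encodes SMC2's partner ATPase. It read 8.13, 8.13 and 8.21 against 8.07, 8.20 and 8.14, with the groups intermixed, and differed by 0.02 ± 0.06 (95% interval -0.12 to 0.15). barr, the kleisin that closes the ring, and Cap-D2 differed by -0.24 ± 0.10 and -0.14 ± 0.07 (adjusted p = 0.295 and 0.438). By the probe set used for each gene, subunits of this one complex thus ranged from -0.24 to 0.02, and none of the 5 passed. The dimmer Cap-G probe set, at -0.48, lay outside this range.

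Cohesin and separase genes were lower in all 5 measured members, with a median of -0.22 (-0.13 with a pseudocount of 32), and none passed. SMC1, an ATPase of the cohesin ring, read 6.63, 6.53 and 6.70 in GFP-positive and 6.85, 6.75 and 7.01 in GFP-negative cells. The groups were 0.05 apart and differed by -0.25 ± 0.09 (SE, limma adjusted p = 0.243). SMC3, its partner, differed by -0.14 ± 0.10 (adjusted p = 0.570). thr, a regulatory partner of separase in Drosophila, stood at 6.53, 6.87 and 6.59 against 6.71, 6.90 and 7.05. GFP-positive replicate 2 exceeded GFP-negative replicate 1, and the difference was -0.22 ± 0.12 (adjusted p = 0.458). The securin gene pim and the separase gene Sse differed by -0.24 ± 0.15 and -0.12 ± 0.23 with overlapping groups. The sign for Sse turned without GFP-negative replicate 1.

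Kinesin genes had a median difference of -0.07 over 3 genes (-0.18 after the span adjustment), and none passed. Klp61F, the bipolar motor that pushes spindle poles apart, read 8.32, 8.28 and 8.28 in GFP-positive and 8.38, 8.37 and 8.27 in GFP-negative cells. Its groups overlapped, and the difference of -0.05 ± 0.06 had a 95% interval of -0.18 to 0.09. Klp10A, a microtubule-depolymerising motor, differed by -0.07 ± 0.08 with groups 0.01 apart. ncd, a minus-end motor that focuses spindle poles, stood at 7.40, 7.37 and 7.69 against 7.75, 7.75 and 7.67. GFP-positive replicate 3 again lay among the GFP-negative arrays, and the difference was -0.23 ± 0.09 (SE, limma adjusted p = 0.278).

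Cytokinesis genes had a median of -0.07 (-0.10 to -0.03 over all alternatives), and of 4 measured 3 were lower and none passed. feo, which bundles midzone microtubules, stood at 8.26, 8.29 and 8.35 in GFP-positive and at 8.58, 8.46 and 8.47 in GFP-negative cells. These groups did not overlap, and the difference was -0.20 ± 0.06 (SE, limma adjusted p = 0.134). scra, the contractile ring scaffold anillin, read 9.15, 9.23 and 9.09 against 9.23, 9.22 and 9.06. Its difference of -0.01 ± 0.06 had a 95% interval of -0.16 to 0.14. tum, a subunit of centralspindlin, differed by -0.12 ± 0.07 (adjusted p = 0.476). pbl, which is needed to form the cleavage furrow, differed by 0.06 ± 0.08 (adjusted p = 0.808).

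Spindle pole and microtubule genes had differences of opposite sign, and their median of -0.02 ran from -0.16 to 0.05 over all alternatives. tacc, which acts with the microtubule polymerase Msps at centrosomes, stood at 6.41, 6.40 and 6.33 in GFP-positive and at 6.07, 5.95 and 5.83 in GFP-negative cells. Every GFP-positive array was higher, by at least 0.26, and the difference of 0.43 ± 0.10 (SE, n = 3 per group) did not pass (limma adjusted p = 0.059). It passed when dim probe sets were left out (adjusted p = 0.027), and over all alternatives its adjusted p ran from 0.017 to 0.348. msps itself read 8.71, 8.33 and 8.38 against 8.57, 8.49 and 8.42, intermixed, with a difference of -0.02 ± 0.10 (95% interval -0.25 to 0.21). mars, a microtubule-associated protein of the HURP family, had GFP-positive values of 6.11 to 6.27 below GFP-negative values of 6.47 to 6.60 and differed by -0.33 ± 0.09 (adjusted p = 0.105).

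The mitotic entry genes gave no clear difference. gwl, the Greatwall kinase that restrains a phosphatase opposing mitotic kinases, read 6.71, 6.79 and 6.48 in GFP-positive and 6.60, 6.70 and 6.41 in GFP-negative cells. The groups overlapped, and the difference was 0.09 ± 0.11 (SE, limma adjusted p = 0.797). twe, a Cdc25-type phosphatase best known from the germline, stood at 3.66, 2.48 and 3.47 against -0.06, 2.46 and 2.45. The GFP-negative mean of 1.62 lay below background, so twe was at least 1.69-fold higher against that level, a bound that is not firm since single controls reach 3.55, and it did not pass (adjusted p = 0.406).

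**Figure D3:**
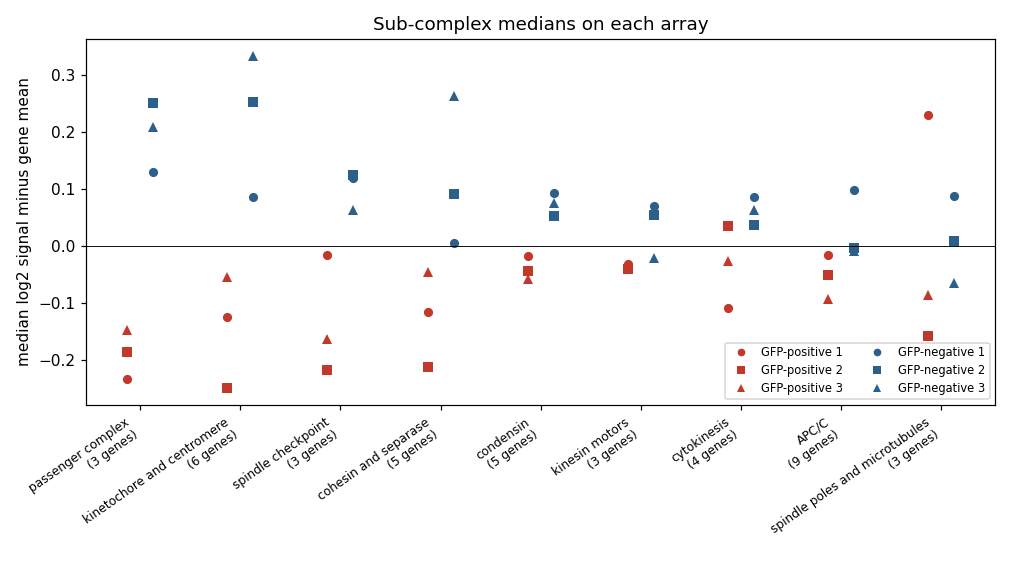
For each sub-complex with 3 or more measured genes, the median over its genes of the log2 signal minus the gene's mean, on each array (red GFP-positive, blue GFP-negative, the symbol gives the replicate). Passenger genes sit at -0.23 to -0.15 against 0.13 to 0.25 and kinetochore genes at -0.25 to -0.06 against 0.09 to 0.33, while spindle pole genes overlap.

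In the plot of sub-complex medians, the passenger genes lay between -0.23 and -0.15 on the GFP-positive arrays and between 0.13 and 0.25 on the GFP-negative arrays. Checkpoint genes lay at -0.22 to -0.02 against 0.06 to 0.12, and condensin genes at -0.06 to -0.02 against 0.05 to 0.09. Medians of the APC/C genes were -0.09 to -0.02 against -0.01 to 0.10, so the groups nearly met. Those of the spindle pole genes, -0.16 to 0.23 against -0.06 to 0.09, overlapped. No test compared the sub-complexes with each other, and their order changed after the span adjustment described further on.

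The size of the difference moved with gene span, the distance from start to end of the annotated gene. When genes with a mean above 4 were divided into deciles by span, the median difference went from -0.18 for the shortest to 0.24 for the longest (log2), and Spearman's rank correlation across genes was 0.43. These genes are not independent and share the same 6 arrays. Over the 43 members, dim ones included, this correlation was 0.63, so the 2 values rest on unlike filters. borr and aurB are short genes, of 1647 and 1298 bp, and tacc and fzr are long, of 15403 and 12248 bp. By sub-complex, the median span was 1415 bp for checkpoint, 1456 bp for kinetochore and 1647 bp for passenger genes. It was 2923 bp for APC/C, 4444 bp for cohesin and separase, 4607 bp for condensin and 9875 bp for spindle pole genes. The ratio of control probe sets at the 3′ and 5′ ends of the glyceraldehyde phosphate dehydrogenase transcript, on the log2 scale, was 1.20 to 3.50 on GFP-positive and 0.27 to 1.26 on GFP-negative arrays, with 1 GFP-positive array inside the GFP-negative range. Those of actin (1.22 to 1.48 and 1.27 to 1.36) and eIF-4a (2.13 to 2.19 and 2.11 to 2.45) overlapped. The part of RNA quality in the results was not tested.

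Of the 40 members with a mean above 4, 32 lay below the median of all genes in their own span decile. As an adjustment, a curve on gene span was subtracted from each array, over 5521 probe sets whose mean exceeded 4. The members' median was -0.12 after this, against -0.15 for the same genes without the adjustment. The median over all 5521 probe sets moved too, from -0.030 without the adjustment to -0.006 with it. The kinetochore and checkpoint medians were then -0.17 and -0.10, no longer below the kinesin median of -0.18. borr then fell by 0.32 ± 0.06 (limma adjusted p = 0.0065), aurB by 0.29 ± 0.08 (0.0489) and mars by 0.37 ± 0.10 (0.041). These 3 of 40 genes are 7.5%, where 6.25% of the 5521 probe sets passed in that fit and 2.46% fell. Without the adjustment, the same probe sets gave 5 calls among the 40 genes, borr, aurB, mars, Bub3 and tacc, and this 12.5% is the background level, since 12.6% of the probe sets passed. The difference of Bub3 shrank to -0.11 and that of tacc to 0.25, and neither passed after it (adjusted p = 0.400 and 0.173).

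**Figure D4:**
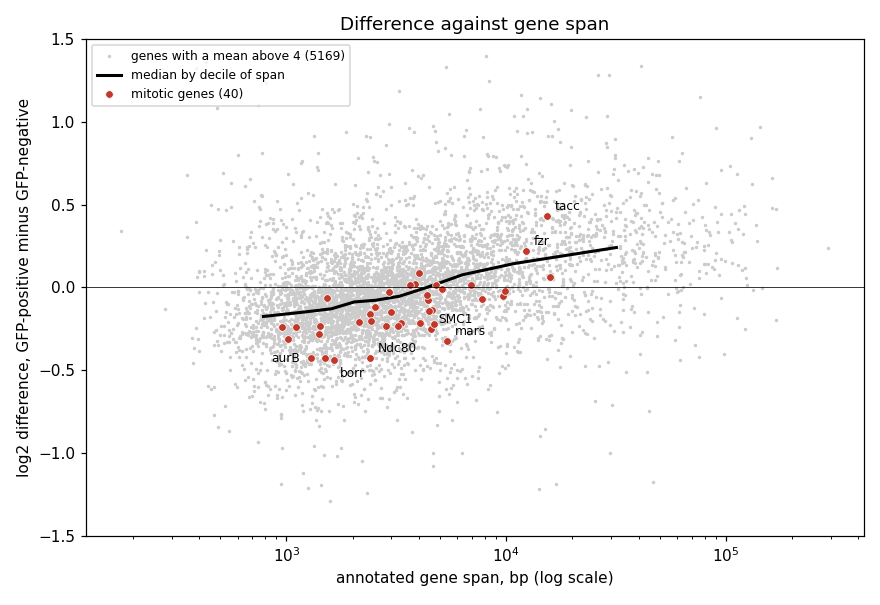
Log2 difference, GFP-positive minus GFP-negative, against annotated gene span (log scale) for genes with a mean signal above 4 (grey), with the median by decile of span (black line) and 40 mitotic genes (red). The line climbs from -0.18 to 0.24, and 32 of the 40 red points lie below their decile's median. The vertical axis ends at 1.5 in either direction and leaves out 8 genes, none of them mitotic.

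Other mitotic genes were written down as lists of symbols, also with earlier results of these data known. They were lower in 48 of 77 measured cases (62.3%), and their median difference was -0.10. Of all genes 52.7% were lower, and of genes with a mean above 4 56.2% were. Of the 77, 3 rose, 4 fell (5.19%) and 70 did not pass, where 3.11% of genes with a mean above 4 rose and 1.93% fell. Among 10 other kinetochore and checkpoint genes 1 fell, Kmn1, a kinetochore subunit, by 0.45 ± 0.08 (SE, limma adjusted p = 0.024). Among 34 other spindle and centrosome genes 2 fell and 1 rose. Those that fell were msd5, of the augmin complex that branches spindle microtubules, by 0.62 ± 0.10, and the centriole gene Sas-4 by 0.43 ± 0.09 (limma adjusted p = 0.020 and 0.041). Plp, a scaffold of the pericentriolar material, rose by 0.85 ± 0.10 (adjusted p = 0.0050), from 6.63, 6.66 and 6.32 in GFP-negative to 7.35, 7.42 and 7.37 in GFP-positive cells.

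Among 15 other cytokinesis genes 2 rose and 1 fell. fwd, a phosphatidylinositol kinase needed for cytokinesis in spermatocytes, rose by 0.67 ± 0.08, and the profilin gene chic by 0.29 ± 0.05 (limma adjusted p = 0.0042 and 0.020). Septin5 fell by 0.56 ± 0.08 (adjusted p = 0.012). Of 18 other chromosome segregation genes 0 passed, and those with the smallest p were ball, a chromatin kinase, at -0.28 ± 0.07 and Rca1, an APC/C inhibitor, at -0.27 ± 0.09 (adjusted p = 0.106 and 0.176). The genes that rose, Plp, fwd and chic, had spans of 28644, 14492 and 8904 bp, and those that fell, Kmn1, msd5, Sas-4 and Septin5, had spans of 1060, 840, 2853 and 1789 bp.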

How the data were processed

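RNA of sorted cells was read on 6 Affymetrix arrays, 3 per group by their titles. The values are log2 signals, 1 for each probe set on each array, as deposited by the authors. They were made with the affy package, per the submitters' processing notes. The log base was taken as 2 from the range of the values. The background correction, summary and scaling are not stated. Scaling of all arrays to 1 level would hide a change common to most genes.

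After 44 controls were removed from 14010 probe sets, 13966 were tested with limma 3.58.1 in R 4.3.3. The settings were lmFit, eBayes with trend and robust options, 2-sided tests, Benjamini-Hochberg adjustment and a threshold of 0.05. The fit was tried on simulated data whose noise depended on signal level alone. That check cannot decide between the forms of prior variance. By the platform annotation, 12443 of the 13966 tested probe sets name 1 gene, 327 several and 1196 none. Gene spans come from RefSeq (Release 6). They rest on annotated start and end positions, which are not printed, and no sequences are used here.

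The members, lists and tests were chosen with earlier results of these data known. Values on every array are given for members past the threshold, for the member with the smallest p and the highest mean in each sub-complex, and where probe sets disagreed in sign. Other mitotic genes are named where they passed, or else the pair with the smallest p in a list. Outside this rule, Det was named as a subunit of the passenger complex, and Mis12 was given on every array after its values were seen. The small number of arrays limits the precision. Alternatives are given in the closing section.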

Additional observations from a re-analysis of the deposited data

How the results depend on the processing

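The number of called members was 2, against 0 with a single prior variance, 1 when a gene's probe sets were averaged, 5 over probe sets with a mean above 4 and a known span, and 1 to 2 without 1 array. The number of called probe sets was 340, against 0 with a single prior variance, 627 without dim probe sets, 695 over probe sets with a mean above 4 and a known span (345 after the span adjustment), and 102 to 189 without 1 array. A block on replicate number gave 437 called probe sets and kept borr and aurB called (adjusted p = 0.0087 and 0.024). Same-numbered arrays had deviations from their group means that correlated at 0.17, 0.10 and 0.04, and each array correlated best with its own number, but the labels give the numbers no meaning.

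The members' median of -0.15 was -0.11 with a pseudocount of 32, -0.12 after the span adjustment, and -0.20 to -0.13 without 1 array. The passenger median of -0.42 was -0.35 with the pseudocount, -0.22 when probe sets were averaged and -0.29 after the span adjustment. The kinetochore median of -0.37 was -0.17 with the pseudocount and -0.17 after the span adjustment. The condensin median of -0.14 was -0.22 when probe sets were averaged, -0.19 after the span adjustment and -0.19 to -0.10 without 1 array. After the span adjustment the checkpoint median was -0.10 and the kinesin median -0.18. The median of the mitotic entry genes, 0.84, was 0.14 with the pseudocount. It was 0.089 both times that twe was left out as dim, and 0.098 after the span adjustment. The spindle pole median, -0.02, was between -0.14 and 0.053 without 1 array. Signs turned in some settings for members near 0, among them Bub1, Cdc16, Cdc27, shtd, cal1 and pbl. That of Sse (-0.12) turned without GFP-negative replicate 1. Leaving out 1 array gave -0.017 to 0.046 for glu, -0.067 to 0.023 for scra and -0.14 to 0.053 for msps. The span adjustment gave -0.0085 for glu and 0.060 for vih. The causes of these shifts were not tested, except that fewer probe sets entered the settings that leave out dim ones.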
